A study of Homo sapiens with 12 samples.

Results

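Antigen presentation genes were examined in HCC827 lung cancer cells that had become erlotinib resistant or had EGFR knocked down. The set held 10 genes: HLA-DRA, HLA-DMA, HLA-DMB, HLA-DPA1, CD74 and CIITA on the class II side, and B2M, TAP2, TAPBP and PSMB10 on the class I side. They were chosen by symbol, and every probe set annotated with 1 of these symbols and no other was taken. That rule gave 19 probe sets of 22215 on the array, 11 for the 6 class II side genes and 8 for the 4 class I side genes. HCC827 is an established lung adenocarcinoma cell line of human origin whose EGFR is mutated and constitutively active. RNA was hybridised to 12 expression arrays, 3 in each of 4 groups. ERC4, labelled as an erlotinib-resistant line, was compared with parental HCC827. HCC827 Esh9-1, which received an EGFR shRNA by lentivirus, was compared with HCC827NT, which received a non-target shRNA by lentivirus. All 4 groups were grown in RPMI with 5% FBS, and the 2 shRNA lines also in 5 ug/ml puromycin, so puromycin was shared within that comparison. Each altered state was represented by a single line, ERC4 or Esh9-1, and the labels do not say whether the 3 arrays of a group were separate cultures, so a p-value here covers array-to-array spread that may be technical. 1 label field described all 12 samples as resistant to the kinase inhibitor, and groups were therefore taken from the sample titles.

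MHC class II molecules display peptides from endosomes to CD4+ T cells, and are made mainly by professional antigen-presenting cells, although epithelial cells, lung epithelium included, can make them under interferon-gamma. The class II side genes other than CIITA are usually described as sharing promoter elements. These are an X box bound by RFX and CREB factors and a CCAAT element (the Y box) bound by NF-Y. The coactivator CIITA assembles on them. MHC class I molecules are made by nearly all nucleated cells. Their peptides come from the proteasome, are pumped into the endoplasmic reticulum by the TAP transporter and are loaded onto a heavy chain paired with beta-2-microglobulin.

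Promoter sequences are shown for the members in which a letter pattern resembling these elements, or an interferon-stimulated response element, was found. The X and Y boxes are the elements through which class II side genes other than CIITA are usually regarded as co-regulated. The sequences were taken from RefSeq (GRCh38.p14), where 8 of the 10 members had an entry. HLA-DRA and CIITA had none in that table. The 250 bases before each transcription start were searched on both strands for 3 patterns: an X-box-like one (C, AG, AC and TG, separated by 2, 2 and 3 bases of any kind), CCAAT, and an ISRE-like one (GAAA, 2 bases of any kind, GAAA), which resembles an interferon-stimulated response element. The X-box-like pattern was written with known class II promoters in mind. Among 35116 promoters in the table, 2.85% held it, 32.0% held CCAAT, 0.95% held both, and 3.02% held the ISRE-like pattern. The 3 members that held both X-box-like and CCAAT matches were HLA-DMA, HLA-DMB and CD74. Capitals mark the X-box-like match and each CCAAT, which reads ATTGG where it lies on the other strand.
HLA-DMA, chr6:32953127-32953228, minus strand: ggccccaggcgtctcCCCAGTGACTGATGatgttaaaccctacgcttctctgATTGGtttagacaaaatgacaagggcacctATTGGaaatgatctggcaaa
HLA-DMB, chr6:32941031-32941134, minus strand: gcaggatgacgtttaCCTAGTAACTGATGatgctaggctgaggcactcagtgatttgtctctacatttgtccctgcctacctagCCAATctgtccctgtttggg
CD74, chr5:150412944-150413009, minus strand: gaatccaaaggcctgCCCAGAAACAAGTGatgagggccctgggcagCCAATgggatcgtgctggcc

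In HLA-DMA the X-box-like match lay 116 to 103 bases before the start, and 23 and 53 bases separated it from the 2 CCAAT matches. In HLA-DMB it lay 91 to 78 bases before the start with 55 bases to the CCAAT match. In CD74 it lay 84 to 71 bases before the start with 17 bases to the CCAAT match. Neither of the 2 HLA-DPA1 windows in the table held any of the 3 patterns.

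The 4 class I side members each held the ISRE-like pattern, shown in capitals below. The 2 matches in TAPBP and in B2M overlap each other, and the B2M window also shows its CCAAT match, on the reverse strand.
TAP2, chr6:32838773-32838812, minus strand: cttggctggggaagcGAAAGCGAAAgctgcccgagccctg
TAPBP, chr6:33314079-33314113, minus strand: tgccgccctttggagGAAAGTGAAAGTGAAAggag
PSMB10, chr16:67936851-67936886, minus strand: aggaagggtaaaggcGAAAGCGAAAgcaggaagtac
B2M, chr15:44711358-44711487, plus strand: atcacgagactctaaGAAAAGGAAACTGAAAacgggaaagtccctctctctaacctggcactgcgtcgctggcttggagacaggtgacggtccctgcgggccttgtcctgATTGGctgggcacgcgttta

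The PSMB10 promoter also held an X-box-like match, 97 to 84 bases before the start. All of these are matches of letters, and no binding was measured.

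The deposited intensities were placed on a log2(value + 1) scale, and all fold changes below are on that scale. Array medians were 5.67 to 5.75 in the parental and ERC4 arrays and 7.15 to 7.17 in the shRNA arrays, so levels were compared only within each pair of lines. The median over all probe sets, 5.72 in the first pair and 7.17 in the second, serves below as a mark of dim signal, since no detection calls were used. EGFR was lower in Esh9-1 than in HCC827NT on 4 of its 6 probe sets, by log2 differences of -1.30 ± 0.07 (201983_s_at, limma SE), -2.16 ± 0.09 (201984_s_at), -2.70 ± 0.13 (210984_x_at) and -2.72 ± 0.13 (211607_x_at). Of the others, 211551_at was higher by 0.18 ± 0.07 and 211550_at did not pass the test. In ERC4 EGFR was higher on 3 of the 6 (201984_s_at 0.66 ± 0.08, 210984_x_at 0.27 ± 0.08 and 211607_x_at 0.26 ± 0.08), and 201983_s_at did not pass (0.21 ± 0.08, adjusted p = 0.051). Replicate arrays correlated at 0.992 or above. The groups also differed in array quality measures. The ACTB 3' minus 5' signal was 1.07 ± 0.15 (log2, SD, n = 3) in Esh9-1 against 0.20 ± 0.03 in HCC827NT, and the hybridisation controls averaged 9.16 in ERC4 against 10.75 in parental cells. The part of these measures in the results below was not tested. In bulk RNA, fewer cells of a type and less RNA per cell cannot be told apart.

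In both comparisons most of the class II side was dim, and what passed the test there was lower. HLA-DMA and HLA-DMB, which together form the HLA-DM heterodimer that exchanges peptide on class II molecules, were both lower in ERC4 than in parental cells and lower in Esh9-1 than in HCC827NT. HLA-DRA, the invariant chain CD74 and 2 of the 3 CIITA probe sets did not pass the test in either comparison. On the class I side TAPBP was higher in both lines on 1 of its 2 probe sets, and PSMB10 was higher in Esh9-1 by 1.75-fold.

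The share of members that changed was not above that of the array. In ERC4, 8 of 19 member probe sets (42.1%) passed an adjusted p of 0.05 (limma, Benjamini-Hochberg over 22215 probe sets), against 48.5% of all probe sets. Of these, 4 were higher and 4 lower, where 23.6% and 24.9% of all probe sets were higher and lower. None of the 4 higher and 4 lower reached a 2-fold change, which 5.37% of all probe sets reached with a call. The arrays of the 2 groups did not overlap for 8 members, against 58.2% of all probe sets. In Esh9-1, 8 of 19 passed (42.1%), against 50.3% of all. There 3 were higher and 5 lower, against 24.5% and 25.9%, 1 reached a 2-fold change (HLA-DMA) against 8.8%, and 10 did not overlap against 58.8%. The median log2 difference over all probe sets was -0.06 in ERC4 and -0.03 in Esh9-1. Of all calls in ERC4, 48.7% were in the higher direction as deposited and 58.9% after each array was centred on its median.

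**Figure D1:**
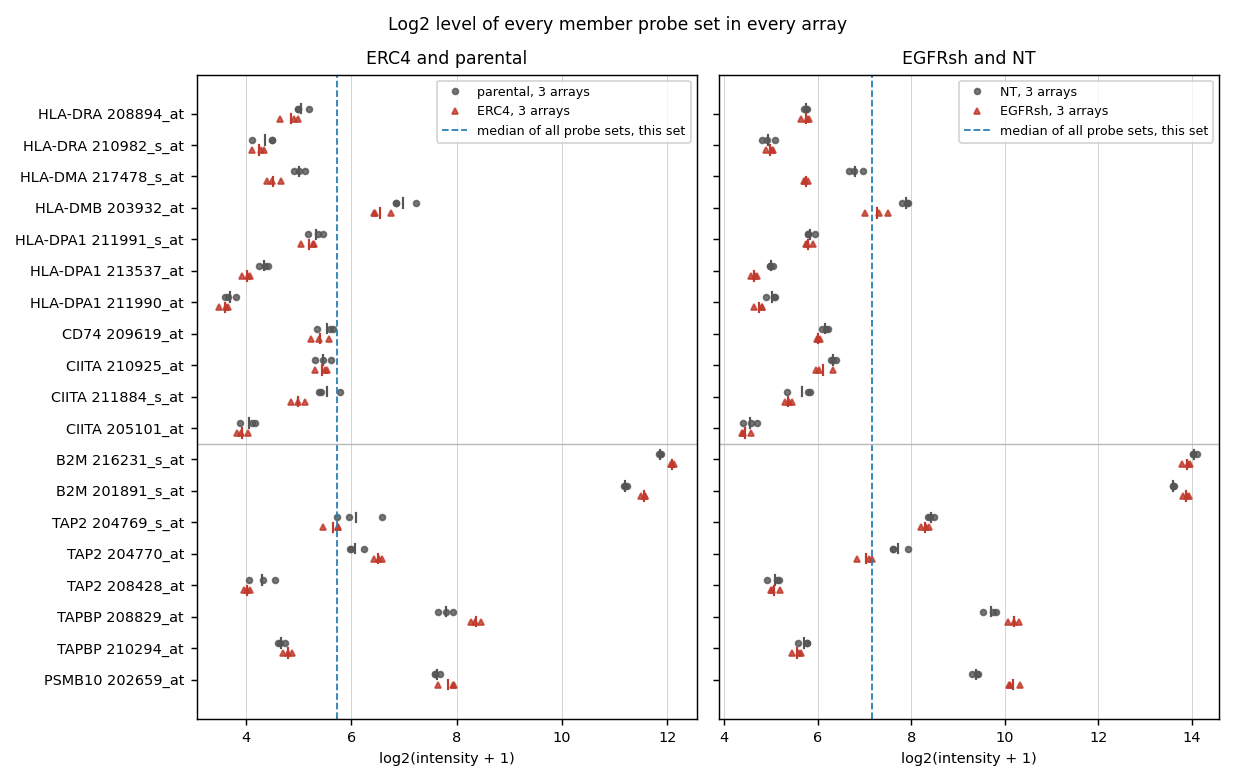
Log2(value + 1) level of each of the 19 member probe sets on each of the 12 arrays, by group (EGFRsh is Esh9-1, NT is HCC827NT), with each array as a point, a short bar at each group mean and a dashed line at the median over all probe sets of that pair of lines. In each pair 7 of the 19 probe sets reach that median and 12 lie under it, and HLA-DMB alone does so on the class II side.

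HLA-DRA encodes the alpha chain of HLA-DR. Its probe set 208894_at read 4.98, 5.19 and 4.98 in parental cells and 4.98, 4.91 and 4.65 in ERC4. The groups touched, and the difference did not pass the test (-0.20 ± 0.11, 95% interval -0.44 to 0.04, adjusted p = 0.15). In the shRNA lines the same probe set read 5.70, 5.77 and 5.75 in HCC827NT and 5.82, 5.64 and 5.77 in Esh9-1. The arrays of the groups were interleaved, and the difference was 0.00 ± 0.07, with an interval of -0.15 to 0.16. The other HLA-DRA probe set, 210982_s_at, differed by -0.12 ± 0.12 in ERC4 and 0.04 ± 0.08 in Esh9-1, and neither passed the test. All HLA-DRA values lay under the median of their pair of lines.

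HLA-DPA1 encodes the alpha chain of HLA-DP and was measured by 3 probe sets, all under the median. Its probe set 213537_at read 4.24, 4.42 and 4.36 in parental cells and 4.07, 3.92 and 4.03 in ERC4. Every ERC4 array was below every parental array (-0.33 ± 0.08, adjusted p = 0.0094). Quantile normalization moved that difference to -0.22 and its adjusted p to 0.054. The HCC827NT arrays read 5.05, 4.97 and 4.97, and the Esh9-1 arrays 4.66, 4.57 and 4.70. The groups again did not overlap (-0.36 ± 0.06, adjusted p = 0.0013).

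The probe set 211990_at of the same gene read 5.07, 4.89 and 5.08 in HCC827NT and 4.64, 4.80 and 4.80 in Esh9-1. It passed the test in that pair (-0.27 ± 0.08, adjusted p = 0.018), and lost the call without Esh9-1 replicate 1 (0.058), HCC827NT replicate 1 (0.058) or HCC827NT replicate 3 (0.067). In ERC4 it differed by -0.10 ± 0.09 and did not pass. The third, 211991_s_at, did not pass in either comparison, at -0.13 ± 0.10 and -0.05 ± 0.07. The 3 HLA-DPA1 probe sets therefore pointed lower in both comparisons but did not agree on passing the test. With the 3 averaged, the Esh9-1 difference was -0.22 and passed (adjusted p = 0.0081), and the ERC4 difference did not pass.

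HLA-DMA, the alpha chain of HLA-DM, read 5.13, 5.01 and 4.90 in parental cells and 4.49, 4.39 and 4.65 in ERC4 (217478_s_at). All 3 ERC4 arrays were below all 3 parental arrays, a 1.41-fold lower level (-0.50 ± 0.10, interval -0.72 to -0.28, adjusted p = 0.0021). HCC827NT gave 6.96, 6.68 and 6.78, and Esh9-1 gave 5.73, 5.71 and 5.79. The groups stood about 1 log2 unit apart, the largest member difference in either comparison (-1.06 ± 0.08, interval -1.24 to -0.88, 2.09-fold lower, adjusted p = 5.2e-06). The HCC827NT mean of 6.80 was still under the median of 7.17, so the fall was measured on a dim probe set. Over its alternatives the Esh9-1 difference ran from -1.13 to -0.89 and passed in each.

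HLA-DMB, the beta chain of HLA-DM, was the class II side member that reached the median in both pairs. It read 7.23, 6.84 and 6.85 in parental cells and 6.76, 6.44 and 6.43 in ERC4 (203932_at). The highest ERC4 array lay just under the lowest parental array, and the level was 1.35-fold lower (-0.43 ± 0.13, adjusted p = 0.02). That call was lost without ERC4 replicate 2 (0.076), ERC4 replicate 3 (0.075) or parental replicate 1 (0.055). In HCC827NT it read 7.94, 7.80 and 7.91, and in Esh9-1 7.02, 7.30 and 7.50. Here every knockdown array was well below the controls, by 1.53-fold (-0.61 ± 0.11, interval -0.87 to -0.35, adjusted p = 0.0016), and the call held under each of its 17 alternatives.

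CD74, the invariant chain that occupies the class II groove until an endosomal protease removes it, read 5.60, 5.35 and 5.65 in parental cells and 5.24, 5.38 and 5.58 in ERC4 (209619_at). The groups overlapped (-0.13 ± 0.11, interval -0.39 to 0.12, adjusted p = 0.35). For CD74 the HCC827NT arrays read 6.22, 6.17 and 6.09, and in Esh9-1 6.04, 5.97 and 6.0. The groups did not overlap, yet the difference missed the threshold (-0.15 ± 0.06, interval -0.29 to -0.01, adjusted p = 0.067). It passed when probe sets were averaged by gene over the array (adjusted p = 0.043). CD74 was under the median in all 4 groups.

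CIITA, the coactivator of class II transcription, was measured by 3 probe sets, all under the median. Its probe set 211884_s_at read 5.42, 5.39 and 5.79 in parental cells and 4.84, 4.99 and 5.12 in ERC4. The groups did not overlap, and the level was 1.46-fold lower (-0.55 ± 0.12, adjusted p = 0.0044), a call kept under each of its 14 alternatives. In HCC827NT it read 5.34, 5.84 and 5.80, and in Esh9-1 5.37, 5.45 and 5.29. The low HCC827NT replicate 1 made the groups overlap (-0.29 ± 0.12, adjusted p = 0.085). Without it the difference was -0.44 and the adjusted p 0.0016.

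The CIITA probe set 210925_at differed by -0.01 ± 0.10 in ERC4 and by -0.23 ± 0.09 in Esh9-1 (adjusted p = 0.076). The latter passed without Esh9-1 replicate 3 (-0.33, adjusted p = 0.0055). The probe set 205101_at differed by -0.14 ± 0.10 and -0.11 ± 0.09, and passed in neither. CIITA was thus called lower in ERC4 by 1 of 3 probe sets and in Esh9-1 by none. With the 3 CIITA probe sets averaged, the ERC4 difference was -0.23 and passed (adjusted p = 0.02). The averaged CIITA difference in Esh9-1 was also lower and passed.

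Over the 11 class II side probe sets, 4 were lower and 0 higher in each comparison. In both pairs 10 of the 11 were under the median, and 3 of these 10 were lower in each, where 25.9% of all probe sets under the median were lower in ERC4 and 17.2% in Esh9-1. The summed intensity of the 11 was 418 to 448 in parental cells and 331 to 369 in ERC4. In the shRNA lines it was 747 to 794 in HCC827NT and 555 to 624 in Esh9-1. These sums did not overlap within either pair, as was so for 58.2% and 58.8% of all single probe sets. Bright members weigh most in such a sum. HLA-DMB alone read 222 to 244 in HCC827NT and 129 to 180 in Esh9-1. HLA-DMA read 101 to 123 and 51 to 54. HLA-DRA 208894_at read 51 to 54 and 49 to 56. The sums therefore do not show a fall across the class II side.

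**Figure D2:**
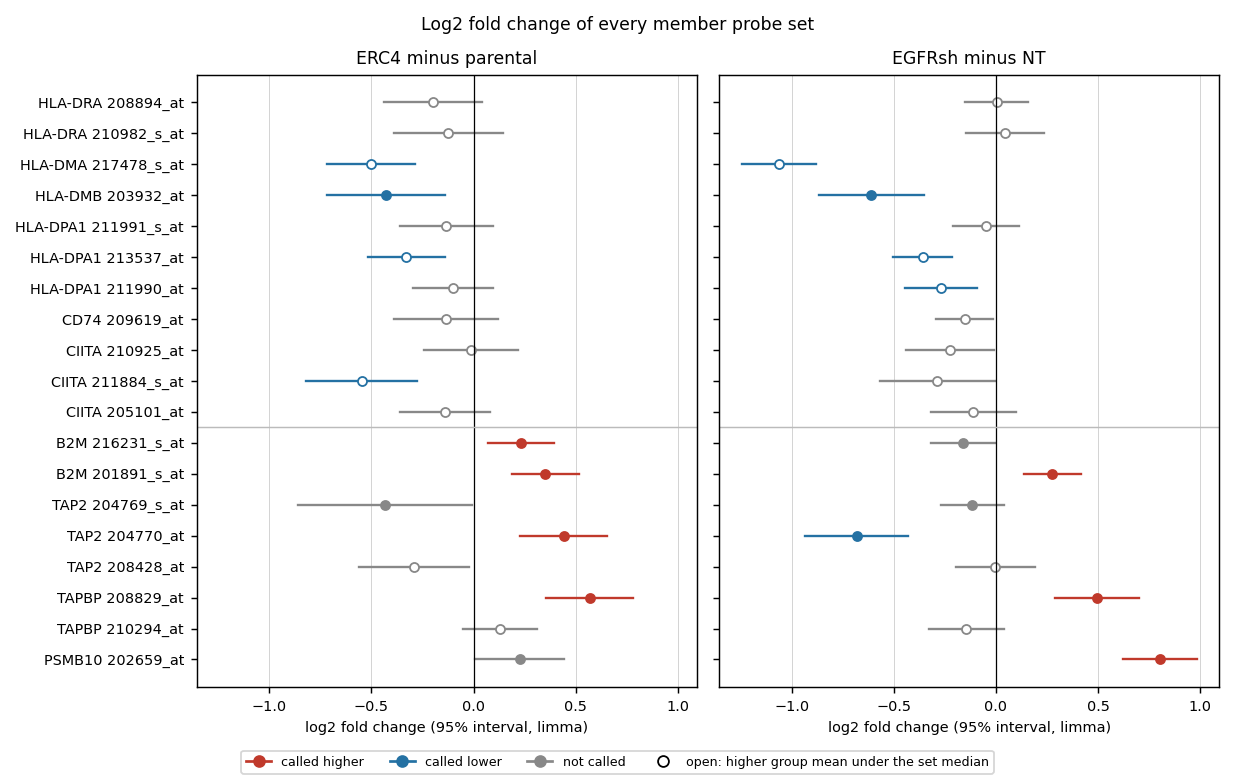
Log2 difference of each member probe set, ERC4 minus parental and Esh9-1 minus HCC827NT, with 95% limma intervals. Red marks are higher and blue marks lower at an adjusted p under 0.05, grey marks did not pass, and open marks are probe sets whose higher group mean lies under the median. HLA-DMA and HLA-DMB lie left of 0 in both, TAPBP 208829_at lies right of 0 in both, and TAP2 204770_at lies on opposite sides.

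On the class I side, PSMB10 encodes an inducible catalytic subunit that replaces its constitutive counterpart in the immunoproteasome. It read 7.67, 7.58 and 7.59 in parental cells and 7.65, 7.92 and 7.95 in ERC4 (202659_at). ERC4 replicate 1 lay among the parental arrays, and the difference missed the threshold (0.23 ± 0.10, interval 0.01 to 0.44, adjusted p = 0.079). Without that array it was 0.32 and passed (0.02), and under quantile normalization it was -0.01. PSMB10 in HCC827NT read 9.30, 9.40 and 9.43, and in Esh9-1 10.33, 10.09 and 10.12. All knockdown arrays were higher, by 1.75-fold (0.80 ± 0.08, interval 0.62 to 0.98, adjusted p = 2.8e-05). The difference was 0.73 to 0.85 over 17 alternatives and passed in each.

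TAP2, 1 chain of the heterodimeric peptide transporter, gave different answers on its 3 probe sets. The probe set 204770_at read 6.24, 5.99 and 5.97 in parental cells and 6.53, 6.58 and 6.42 in ERC4. It was 1.36-fold higher with no overlap (0.44 ± 0.10, adjusted p = 0.004), but with all TAP2 probe sets averaged the difference was -0.094 (adjusted p = 0.44). In HCC827NT it read 7.62, 7.93 and 7.60, and in Esh9-1 6.85, 7.09 and 7.17. It was 1.60-fold lower there, again with no overlap (-0.68 ± 0.11, adjusted p = 0.00076). The difference between the 2 comparisons was not tested.

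The TAP2 probe set 204769_s_at read 5.73, 5.95 and 6.58 in parental cells and 5.46, 5.75 and 5.75 in ERC4, with parental replicate 3 far above the rest. It did not pass (-0.43 ± 0.19, adjusted p = 0.086), and without parental replicate 3 the difference was -0.19, whereas without parental replicate 1 it was -0.61 and passed (0.021). In Esh9-1 it differed by -0.12 ± 0.07 and did not pass. The dim 208428_at passed in neither comparison, at -0.29 ± 0.12 and 0.00 ± 0.09. With all TAP2 probe sets averaged, the Esh9-1 difference was -0.27 and passed (adjusted p = 0.0019).

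TAPBP encodes tapasin, which bridges class I molecules and TAP during peptide loading. Its probe set 208829_at read 7.65, 7.80 and 7.93 in parental cells and 8.45, 8.27 and 8.35 in ERC4. The groups were clearly apart, a 1.48-fold higher level (0.57 ± 0.09, adjusted p = 0.0009). TAPBP in HCC827NT read 9.74, 9.53 and 9.82, and in Esh9-1 10.20, 10.08 and 10.30. These too did not overlap (0.49 ± 0.09, 1.41-fold, adjusted p = 0.0015). The dim TAPBP probe set 210294_at differed by 0.13 ± 0.08 and -0.14 ± 0.08 and passed in neither. With both TAPBP probe sets averaged, the Esh9-1 difference was 0.17 and its adjusted p 0.082.

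B2M, the light chain of class I molecules, lay far above the median on all 12 arrays. Its probe set 201891_s_at read 11.17, 11.24 and 11.19 in parental cells and 11.57, 11.57 and 11.51 in ERC4. It was 1.28-fold higher without overlap (0.35 ± 0.07, adjusted p = 0.0034). In HCC827NT it read 13.60, 13.63 and 13.59, and in Esh9-1 13.80, 13.94 and 13.90. It was 1.21-fold higher there, with no overlap (0.28 ± 0.06, adjusted p = 0.0048).

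The other B2M probe set, 216231_s_at, read 11.85, 11.89 and 11.86 in parental cells and 12.08, 12.07 and 12.13 in ERC4. It was 1.17-fold higher (0.23 ± 0.07, adjusted p = 0.024), and that call was lost without any 1 of ERC4 replicate 1 (0.057), 2 (0.054) or 3 (0.08), or parental replicate 3 (0.056). In HCC827NT it read 14.10, 14.02 and 14.03, and in Esh9-1 13.78, 13.96 and 13.92. Here the knockdown arrays were all lower, and the difference missed the threshold (-0.16 ± 0.07, adjusted p = 0.078). It passed under quantile normalization (0.036), with dim probe sets left out (0.044) and with a trended, robust variance prior (0.0077). With both B2M probe sets averaged it was 0.06 (adjusted p = 0.44). B2M therefore had no single direction in Esh9-1.

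Over the 8 class I side probe sets, 4 were higher and 0 lower in ERC4, and 3 were higher and 1 lower in Esh9-1. In each pair 6 of the 8 reached the median. The 4 higher in ERC4 and the 3 higher in Esh9-1 were all among these 6, where 37.7% of all probe sets that reached the median were higher in ERC4 and 36.1% in Esh9-1. The median log2 difference of the 8 was 0.23 in ERC4 and -0.06 in Esh9-1.

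Other genes of the pathway were read from lists chosen with earlier results of these data known, and are given as counts of probe sets beside the array's shares above. The class II peptide-binding and exchange list held 27 probe sets of 12 genes. In ERC4 15 were lower and 0 higher, with a median of -0.26, and quantile normalization left 8 lower and median centring 10. In Esh9-1 7 were lower and 0 higher, with a median of -0.09. With the members left out, 12 of 19 were lower in ERC4 and 3 of 19 in Esh9-1. HLA-DRB1, a beta chain of HLA-DR, fell from 6.18 to 5.31 in ERC4 (208306_x_at, -0.88 ± 0.11, adjusted p = 2e-04) and from 7.68 to 7.18 in Esh9-1 (-0.49 ± 0.07, adjusted p = 0.00036). HLA-DQB1, a beta chain of HLA-DQ, was lower on 211656_x_at by -0.68 in ERC4 and -0.20 in Esh9-1. HLA-DOA, a chain of the HLA-DO modulator of HLA-DM, was lower in ERC4 on 211142_x_at (-0.45 ± 0.14) and did not pass in Esh9-1 (-0.05 ± 0.07). Probe sets with the suffix _x_at can match several HLA transcripts, so these are uncertain as to gene and are not independent of each other.

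The class II transcription factor list held 22 probe sets of 8 genes, CIITA included. In ERC4 7 were higher and 3 lower (median 0.15), and in Esh9-1 2 were higher and 10 lower (median -0.21). NFYB, a subunit of the CCAAT-binding NF-Y, was 0.94 ± 0.09 higher in ERC4 on 218127_at, and did not pass in Esh9-1 on that probe set (-0.03 ± 0.06). Its probe sets 218128_at and 218129_s_at were higher in ERC4 (0.57 and 0.58). In Esh9-1 218128_at was higher (0.25) and 218129_s_at lower (-0.24). NFYA, another NF-Y subunit, was higher in ERC4 on 204109_s_at (0.61 ± 0.13) with its other 3 probe sets not passing, and lower in Esh9-1 on that probe set (-0.75 ± 0.10). In Esh9-1 NFYA was also lower on 204107_at (-0.71) and 215720_s_at (-0.72), and 204108_at did not pass (-0.09). CREB1, which binds the X2 part of the X box, was lower in both lines on 214513_s_at (-0.84 and -0.78). Its other 3 probe sets did not pass in ERC4, at -0.21 (204312_x_at), 0.24 (204313_s_at) and 0.22 (204314_s_at). In Esh9-1 2 of those 3 were also lower (204312_x_at -0.81, 204313_s_at -0.24), and 204314_s_at did not pass (0.04). RFX5, a subunit of the X-box-binding RFX complex, rose in Esh9-1 by 1.27 ± 0.07 on 202963_at, but its other probe set 202964_s_at differed by 0.03 ± 0.08 and did not pass. In ERC4 202963_at was also higher (0.36 ± 0.09, adjusted p = 0.0093), and 202964_s_at did not pass (0.20 ± 0.08).

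Genes of endosomal processing moved both ways. Their list held proteases that cut antigen or the invariant chain, and also LAMP1, LAMP2, CD63 and AP1S1, which are not proteases. Of 21 probe sets of 10 genes, 10 were higher and 5 lower in ERC4, and 8 were higher and 8 lower in Esh9-1. The ERC4 median of 0.14 turned to -0.04 under quantile normalization. CTSB, the protease cathepsin B, was lower in ERC4 on all 4 of its probe sets, by -0.95 ± 0.08 on 200838_at, and in Esh9-1 1 was lower (200838_at, -0.27) and 1 higher (213275_x_at, 0.28). LAMP2, a lysosomal membrane protein, was higher on all 3 of its probe sets in both lines (203042_at, 1.40 ± 0.08 in ERC4 and 1.05 ± 0.08 in Esh9-1, and 203041_s_at, 1.24 and 0.81). LAMP1, a related protein, was lower in Esh9-1 on 201551_s_at (-1.18 ± 0.11), which did not pass in ERC4 (0.07 ± 0.09). In Esh9-1 201552_at was also lower (-0.32), and 201553_s_at (0.10) and 213728_at (0.04) did not pass. In ERC4 201552_at was higher (0.44), 213728_at was lower (-0.26) and 201553_s_at did not pass (0.14). CTSL, the protease cathepsin L, was higher in both (202087_s_at, 0.47 ± 0.09 in ERC4 and 1.47 ± 0.10 in Esh9-1). CTSH, cathepsin H, was higher in ERC4 (202295_s_at, 0.70 ± 0.08) and 5.31-fold lower in Esh9-1 (-2.41 ± 0.09, adjusted p = 4.4e-08). CTSS, the cathepsin best known for trimming CD74, was higher in ERC4 on 202902_s_at (0.45 ± 0.10) and did not pass there in Esh9-1 (-0.15 ± 0.06). Its other probe set 202901_x_at, dim in both pairs, was higher in both (0.37 ± 0.08 and 0.63 ± 0.07).

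Class I heavy chains, with B2M, gave 21 probe sets of 8 genes. In Esh9-1 20 were higher and 0 lower, with a median of 0.64. With the B2M probe sets left out, all 19 heavy chain and related probe sets were higher there, by 0.33 to 1.33. In ERC4 4 were higher and 8 lower (median -0.13), a split that became 5 and 14 under quantile normalization and 6 and 6 after median centring. HLA-B, a classical heavy chain, was higher in Esh9-1 (209140_x_at, 13.13 to 14.04, 0.91 ± 0.06, adjusted p = 2e-06) and lower in ERC4 (-0.27 ± 0.07, adjusted p = 0.011; 211911_x_at, -0.48 ± 0.07). HLA-E, a nonclassical heavy chain, was higher in both on 200904_at (0.48 ± 0.10 and 0.57 ± 0.11), and its other 2 probe sets did not pass in ERC4. HLA-F, also nonclassical, was higher in Esh9-1 on 221875_x_at (0.91 ± 0.06) and did not pass in ERC4 (-0.09 ± 0.08). MICA and MICB, stress-induced ligands of the NKG2D receptor, were higher in Esh9-1 by 2.51-fold and 2.18-fold. MICB was also higher in ERC4 (0.60 ± 0.15, adjusted p = 0.0096), whereas MICA did not pass there (0.32 ± 0.13). The difference between the 2 comparisons was not tested.

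The class I peptide loading list held 21 probe sets of 9 genes, TAP2 and TAPBP included. In ERC4 11 were higher and 1 lower (median 0.31), and in Esh9-1 9 were higher and 6 lower (median 0.00). TAP1, the partner of TAP2 in the transporter, was higher in both lines on 202307_s_at (0.76 ± 0.09 in ERC4, 0.62 ± 0.10 in Esh9-1). ERAP1, which trims peptides in the endoplasmic reticulum, was higher by 2.93-fold in ERC4 and 5.05-fold in Esh9-1 on 209788_s_at, and was higher in both on 210385_s_at (0.88 ± 0.12 and 0.71 ± 0.08). On 209701_at ERAP1 did not pass in ERC4 (0.17 ± 0.09) and was lower in Esh9-1 (-0.65 ± 0.08), so its probe sets disagreed in direction. CANX, the chaperone calnexin, was higher in ERC4 and lower in Esh9-1 on 208853_s_at (0.62 and -0.81) and 208852_s_at (0.76 and -0.52), and on 200068_s_at it was higher in ERC4 (0.69) and did not pass in Esh9-1 (0.16).

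Immunoproteasome and activator genes, PSMB10 included, were listed together with the proteasome inhibitor PSMF1 and gave 6 probe sets of 5 genes. In ERC4 4 were higher and 0 lower (2 and 1 under quantile normalization), and in Esh9-1 5 were higher and 0 lower. PSMB9, another inducible subunit, was higher in both lines (204279_at, 0.94 ± 0.07 in ERC4 and 0.71 ± 0.07 in Esh9-1). PSMB8, the third inducible subunit, did not pass in either (209040_s_at, -0.09 ± 0.07 and -0.13 ± 0.06). PSME1, a subunit of the interferon-inducible proteasome activator, was higher in both (200814_at, 0.38 ± 0.08 and 0.59 ± 0.06). PSMF1, which inhibits the proteasome, was higher in both on 201053_s_at (0.84 ± 0.12 and 0.64 ± 0.07). Both of its probe sets were among the higher ones counted above in each comparison. Of the 3 constitutive catalytic subunits, PSMB5 (-0.27 ± 0.07) and PSMB6 (-0.21 ± 0.08) were lower in ERC4, and PSMB5 (0.46 ± 0.06) and PSMB7 (0.69 ± 0.06) were higher in Esh9-1.

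Interferon-gamma is the main inducer of class II genes, and its signalling list held 23 probe sets of 15 genes. In ERC4 6 were higher and 3 lower (median 0.03), and in Esh9-1 9 were higher and 7 lower (median -0.01). By at least 2-fold, 2 were higher and 0 lower in ERC4, and 4 were higher and 2 lower in Esh9-1. The Esh9-1 differences ran from -1.66 to 2.52, so the list had no single direction there. GBP1, an interferon-induced GTPase, was 8.70-fold higher in ERC4 (202270_at, 4.65 to 7.77) and 4.02-fold higher in Esh9-1, and its probe set 202269_x_at was higher in both (2.40 ± 0.14 and 1.68 ± 0.09). GBP2, a related GTPase, was higher in Esh9-1 by 2.52 ± 0.15 on 202748_at and did not pass in ERC4 (0.14 ± 0.09). IDO1, an interferon-induced enzyme of tryptophan breakdown, was higher in ERC4 (210029_at, 0.84 ± 0.09) and lower in Esh9-1 (-0.39 ± 0.12). IRF1, an interferon-induced transcription factor, was higher in ERC4 (0.38, adjusted p = 0.012) and did not pass in Esh9-1 (0.00, adjusted p = 0.96).

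**Figure D3:**
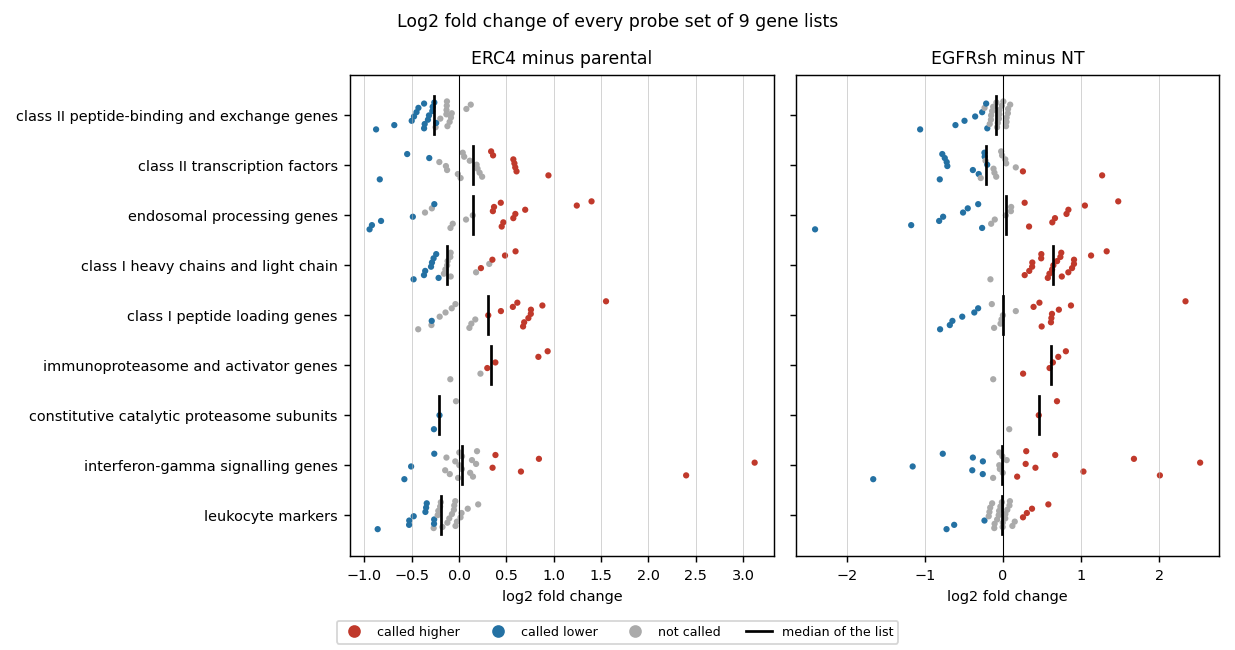
Log2 differences of all probe sets in 9 lists of antigen presentation and marker genes, for ERC4 minus parental and Esh9-1 minus HCC827NT, with red points higher and blue points lower at an adjusted p under 0.05, grey points not passing, and a bar at each list's median. The class I heavy chain points of Esh9-1 sit to the right of 0 except for 1 B2M probe set, and the class II peptide-binding points that passed the test sit to the left in both.

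Markers of leukocytes, which carry abundant class II, were dim as well. Of 27 probe sets of 17 genes, 22 were under the median in the first pair and 26 in the second. PTPRC, the leukocyte antigen CD45, read 4.66 in parental cells, 4.49 in ERC4, 4.85 in HCC827NT and 4.67 in Esh9-1 on 207238_s_at. CD79A, part of the B cell receptor, was lower in ERC4 (205049_s_at, -0.86 ± 0.13) and in Esh9-1 (-0.63 ± 0.10), and LST1, a leukocyte transcript, was lower in ERC4 on 211582_x_at (-0.35 ± 0.09) and 214574_x_at (-0.26 ± 0.10). The list's summed intensity was 945 to 1043 in parental cells, 839 to 878 in ERC4, 1891 to 1920 in HCC827NT and 1790 to 1937 in Esh9-1. In ERC4 9 were lower and 0 higher (4 and 1 under quantile normalization), and in Esh9-1 3 were lower and 4 higher. Epithelial markers served as the check of the labelled cell type, and 12 of their 14 probe sets reached the median in the first pair and 11 in the second. Of these 14, 10 were lower and 1 higher in ERC4 (median -0.80), and 11 were lower and 0 higher in Esh9-1 (median -1.46). The other 3 in each comparison did not pass. Among the lower ones were CDH1, the adherens junction protein E-cadherin (201130_s_at, -3.55 ± 0.10 and -5.28 ± 0.12, and 201131_s_at, -2.75 ± 0.09 and -6.28 ± 0.10), and EPCAM, an epithelial adhesion molecule (201839_s_at, -2.64 ± 0.08 and -4.92 ± 0.09). The part of this shift in the values of the antigen presentation genes was not tested.

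The genes whose pattern was most like HLA-DRA 208894_at over the 12 arrays, after each pair of lines was set to its own mean, were RARA (Pearson r = 0.89), HAPSTR1 (0.88), GDPD2 (0.88), KMT2B (0.87) and CEBPZ (0.87). These correlations are a description, since HLA-DRA was dim on all arrays and its values moved little.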

How the data were processed

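RNA from 12 samples was measured on expression arrays, 3 in each of 4 groups, and groups were read from the sample titles. The deposited intensity values were on a linear scale for 22277 probe sets and, per the submitters' processing notes, came from RMA (version not given). The tables do not say which arrays were normalized together, and array medians differed between the 2 pairs of lines, so levels were never set across pairs. Values were transformed as log2(value + 1). Each pair of 6 arrays was fitted apart with limma 3.58.1 (lmFit and eBayes) in R 4.3.3, with 4 residual degrees of freedom, over 22215 probe sets after 62 control probe sets were left out. P-values were adjusted by Benjamini-Hochberg, and an adjusted p under 0.05 was called. Errors are limma SE unless named SD. With 3 arrays a group the number of arrays limits the precision, and an exact permutation test could not go below 0.1, so none was used.

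Probe sets were named from the platform annotation, updated to RefSeq symbols by gene identifier: 19070 had 1 symbol, 1043 several and 2164 none, and 5 class II probe sets with several symbols were not named. The genes named were EGFR, all members and, from each list, the called probe sets with the 3 largest differences whose higher group reached the median of the pair. PTPRC, and probe sets given to show how a gene's other probe sets or the other comparison read, were chosen after values were seen, as were HLA-B 209140_x_at, CTSS, PSMB8 and IRF1. Members and lists were chosen with earlier results of these data known. Promoters were searched by exact pattern match. The fit was tested on simulated data, and figures were drawn with matplotlib 3.10.9. Alternatives are given in the closing section.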

Additional observations from a re-analysis of the deposited data

How the results depend on the processing

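The 19 member differences were recomputed under other pseudocounts, normalizations, filters, probe set summaries, model settings and with each array left out. In ERC4, 270 values stayed on their side of the threshold, 12 moved past it, 10 no longer passed and 1 called value changed sign. In Esh9-1 these were 279, 9, 5 and 0. Over both comparisons, 17 of the values that stayed on their side changed sign with neither fit called, PSMB10 in ERC4 among them. The called value that changed sign was TAP2 204770_at in ERC4, which was -0.094 (adjusted p = 0.44) when all TAP2 probe sets were averaged. With 1 value per gene, 11963 genes were tested, 10 of them members. With the brightest probe set per gene, 6184 were called in ERC4, 5 of them members, and 6440 in Esh9-1, 4 of them members. With probe sets averaged by gene, 6457 were called in ERC4, 5 of them members, and 6543 in Esh9-1, 7 of them members. Without dim probe sets, 7 member probe sets were tested in each pair. In ERC4 7789 of 11946 probe sets were then called, 5 of them members, and in Esh9-1 8760 of 11876, 6 of them members. Leaving out 1 replicate array at a time gave 8617 to 10325 calls in ERC4 with 6 to 9 members, and 10011 to 10722 in Esh9-1 with 7 to 9 members. The replicate numbers gave no clear sign of pairing. Same-numbered arrays correlated in their deviations at 0.02, 0.07 and 0.01 in the first pair of lines and at -0.14, -0.03 and -0.11 in the second. Arrays of other numbers correlated at -0.07 to 0.05 in the first pair and at -0.05 to 0.14 in the second. With 3 arrays a group these values cannot exclude pairing. The replicate block gave 10639 calls with 9 members in ERC4 and 10454 with 8 members in Esh9-1. Dim probe sets limit what can be read of the class II side, since no detection calls were used.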
